A study of Mus musculus with 12 samples.

Results

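Proteoglycans and hyaluronan synthesis are represented here by 10 genes of 28995 with values in any of the tables, taken by gene symbol: 8 small leucine-rich proteoglycan (SLRP) genes (Dcn, Lum, Bgn, Fmod, Ogn, Omd, Prelp and Aspn), the large chondroitin sulfate proteoglycan gene Vcan, and the hyaluronan synthase gene Has2. Their transcripts were measured by poly(A) RNA sequencing in primary fibroblasts from hindlimb muscle of wild-type C57BL/10 mice taken at postnatal day 3. The plates were treated for 48 hours with 1 µM aldosterone, 1 µM spironolactone or the DMSO vehicle, with 4 libraries per treatment, after a day in medium with charcoal-stripped serum that all groups shared. Aldosterone is the natural mineralocorticoid, which also binds the glucocorticoid receptor, and spironolactone is an antagonist of the mineralocorticoid receptor. No group received both agents, so the libraries do not show whether spironolactone opposes aldosterone. The labels give 2 mice with 2 plates per mouse and treatment, and each library carries a sample number and a biological replicate number without saying which is the mouse. The p-values therefore measure the spread between these libraries, part of which may be technical.

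SLRPs are secreted proteins with a short leucine-rich core and, in most members, chondroitin, dermatan or keratan sulfate chains. Several of them bind collagen fibrils and set fibril diameter and spacing. Versican, the product of Vcan, binds hyaluronan in the provisional matrix that forms during development and after injury, and hyaluronan itself is a long sugar chain made at the plasma membrane by the hyaluronan synthases.

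The libraries held between 19136923 and 30219185 reads on genes, with a median of 23833430.5. All 9 fibroblast markers, including Pdgfra, Col1a1 and Thy1, had a mean of at least 10 normalized counts, whereas Pax7, Myf5, Myod1 and Myog, which define muscle precursors, stayed at or below 5.59 in every library. Other genes of the muscle list were detected. With vehicle, Acta1 was at 452 to 644 normalized counts, Des at 66.3 to 133, Myh3 at 1.23 to 21.2 and Mymk at 0 to 2.96. Fkbp5, Tsc22d3 and Per1, known targets of corticosteroid receptors, were higher with aldosterone than with vehicle by 4.26, 2.69 and 1.83 on the log2 scale, and none of them was called with spironolactone (limma, adjusted p = 0.934 for each). The summed counts of some marker lists of other cell types differed with aldosterone. The summed cartilage markers were at 72699 to 108671 normalized counts with aldosterone and 49555 to 79851 with vehicle. In this list the means of Col2a1, Comp, Sox9 and Col9a1 were higher with aldosterone. Those of Acan and Matn1 were lower, at 1144 and 2.41 with aldosterone against 1526 and 5.30 with vehicle. The summed tendon markers were at 3247 to 3485 against 4465 to 5068. The muscle list was at 212 to 456 against 528 to 784, the bone list at 1121 to 1195 against 1402 to 1577, and the endothelial list at 686 to 764 against 479 to 539. The muscle sum is mostly Acta1, with a mean of 239 against 545. In that list only Myh3 (11.5 against 8.72) and Mymk (1.13 against 1.01) had higher means with aldosterone. The endothelial sum is mostly Tek (529 against 449) and Kdr (170 against 45.7), and only Pecam1 had a lower mean (2.89 against 6.64). The bone sum is mostly Runx2 and Sp7, and the means of Bglap, Ibsp and Dmp1, under 40 normalized counts, were higher with aldosterone (20.3, 37.6 and 11.7) than with vehicle (15.4, 17.0 and 4.78). The fibroblast list itself summed to 1034571 to 1157946 normalized counts with aldosterone and 1183956 to 1275316 with vehicle. Of its 9 genes 3 were higher and 1 lower (limma), where 10.4% of all genes passed. A limma fit that also allowed for a shift between sample numbers had 4 higher and 5 lower, where 16.7% passed. The fibroblast sum is mostly Col1a1, with a mean of 458536 against 577212, and Col1a2 (334210 against 377508). The means of Col3a1, Pdgfrb and Thy1 were also lower. Those of Pdgfra (5983 against 3186), Ly6a (21535 against 10642), Vim and Cd34 were higher. The part of these lists in the results below was not tested. In bulk samples fewer cells of a type and less RNA per cell cannot be told apart.

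In vehicle-treated fibroblasts the 10 genes covered a wide range of levels. Per kb of gene length, Bgn (biglycan) was at 19122 ± 921 normalized counts (SD, n = 4), rank 24 of 26515 genes with a value. Fmod (fibromodulin, a keratan sulfate SLRP that binds collagen) followed at 13946 ± 1384, and Ogn (osteoglycin) at 8082 ± 2193. Prelp, a basement membrane and collagen linking SLRP, was at 5048 ± 675 per kb, and Aspn (asporin) at 4847 ± 443. Lower levels were found for Dcn (decorin) at 872 ± 142, Vcan at 580 ± 12.2, Lum (lumican) at 450 ± 111, Omd (osteomodulin) at 420 ± 148 and Has2 at 153 ± 38.2. The ranges of the 4 vehicle libraries overlapped between Prelp and Aspn, between Vcan and Lum and between Lum and Omd, and did not overlap between the other neighbours in this order. Decorin, often a leading SLRP of connective tissue fibroblasts, was thus well below biglycan and fibromodulin in these cultures. Of the summed per kb level of the 8 SLRP genes in vehicle, Bgn made up 36.4% ± 3.52 and Dcn 1.64% ± 0.178 (SD, n = 4). The 10 genes together took between 0.904% and 1.07% of the reads of a library.

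**Figure D1:**
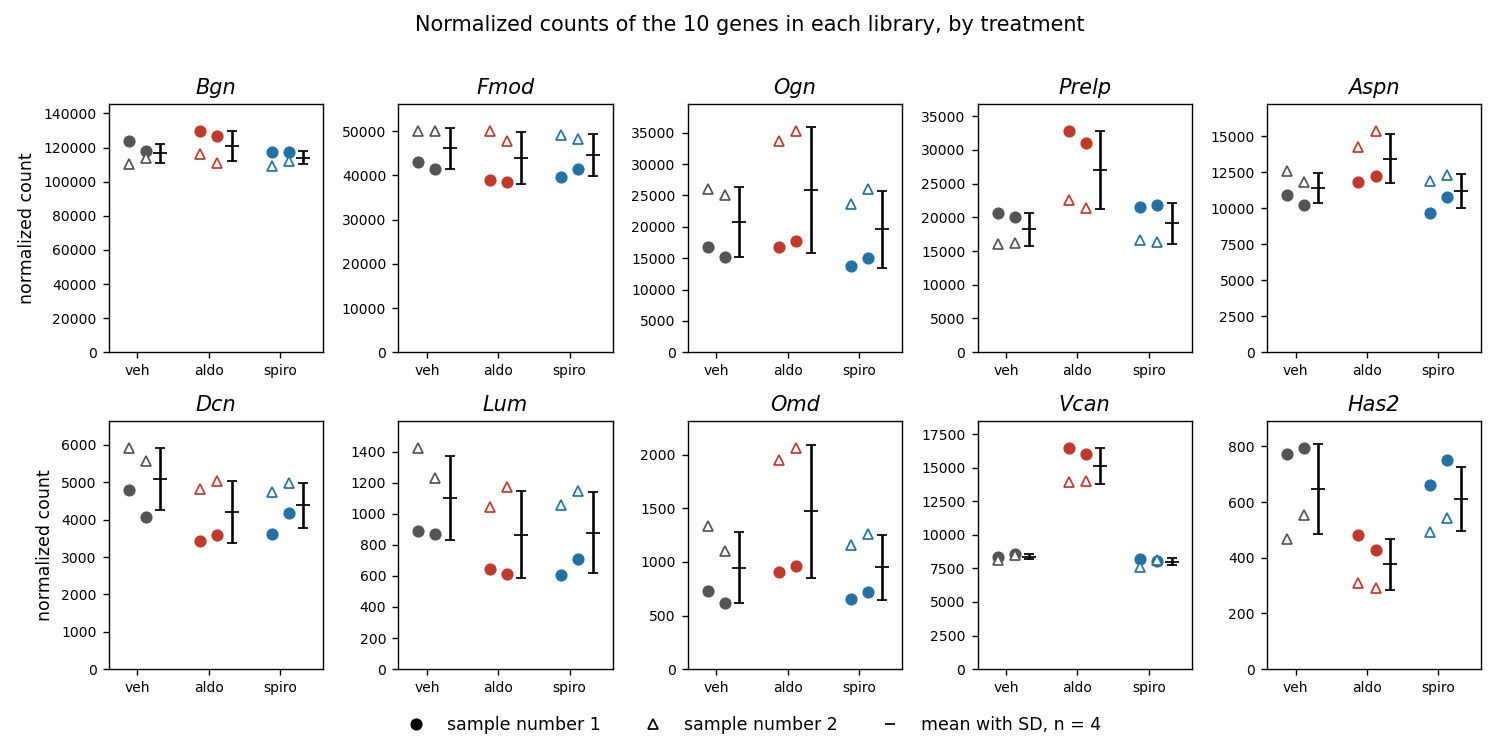
Normalized counts (reads divided by the size factor of the library) of the 10 genes in each library, by treatment, with an axis from 0 for each gene; circles are sample number 1, triangles sample number 2, and bars the mean with SD (n = 4). Vcan separates aldosterone from both other treatments, Has2 is lowest with aldosterone within each sample number, and Ogn, Omd and Lum separate the sample numbers within every treatment.

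Some of these genes are neighbours in the genome. Aspn (chromosome 13, 49697919 to 49721041), Omd (49735938 to 49746298) and Ogn (49761522 to 49777977) lie on the plus strand within 119.7 kb together with Ecm2, in coordinates as deposited. Dcn, Lum, Kera and Epyc lie within 202.8 kb of chromosome 10, and Prelp, Optc and Fmod within 151.1 kb of chromosome 1. Vcan lies on the minus strand of chromosome 13 (89803431 to 89890628), within 202.7 kb together with Hapln1. For 6 of the 10 genes the annotation has a gene on the opposite strand that overlaps them: Cenpp for Aspn, Omd and Ogn, Gm4117 and Gm16318 for Vcan, Has2os for Has2 and Gm15851 for Prelp. Their values were at most 118 normalized counts in any library, and whether counting used the strand is not given in the sources used here. RefSeq start sites were given for 7 of the 10 genes, and not for Has2, Dcn or Lum. The 250 bases upstream of the start are shown for Vcan, the member with the largest difference, and for the 3 neighbours on chromosome 13. They are from RefSeq on GRCm38.p6, at chr13:89742513-89742762 (minus strand) for Vcan, and on the plus strand at chr13:49544193-49544442 for Aspn, chr13:49582212-49582461 for Omd and chr13:49607765-49608014 for Ogn. They are printed 5′ to 3′ with the letters TATAAA in capitals.
Vcan: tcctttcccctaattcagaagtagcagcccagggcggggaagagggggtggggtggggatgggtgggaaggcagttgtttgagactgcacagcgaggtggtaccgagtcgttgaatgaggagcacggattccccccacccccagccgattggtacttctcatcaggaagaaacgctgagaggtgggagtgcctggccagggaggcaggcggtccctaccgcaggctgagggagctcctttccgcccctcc
Aspn: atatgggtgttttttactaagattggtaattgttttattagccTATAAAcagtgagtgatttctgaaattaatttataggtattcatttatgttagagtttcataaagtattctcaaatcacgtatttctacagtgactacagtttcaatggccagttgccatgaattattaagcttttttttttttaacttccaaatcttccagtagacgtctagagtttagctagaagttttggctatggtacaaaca
Omd: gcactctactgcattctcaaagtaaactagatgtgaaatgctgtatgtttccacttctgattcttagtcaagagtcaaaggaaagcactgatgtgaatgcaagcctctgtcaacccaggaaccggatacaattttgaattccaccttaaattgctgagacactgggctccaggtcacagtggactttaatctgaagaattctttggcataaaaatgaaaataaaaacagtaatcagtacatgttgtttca
Ogn: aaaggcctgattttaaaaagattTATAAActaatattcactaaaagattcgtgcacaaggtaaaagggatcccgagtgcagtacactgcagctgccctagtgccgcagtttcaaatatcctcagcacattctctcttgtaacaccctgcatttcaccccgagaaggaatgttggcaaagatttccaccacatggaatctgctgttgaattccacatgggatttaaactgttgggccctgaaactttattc
The full corticosteroid receptor palindrome (AGAACA and TGTTCT with 3 bases between them), searched on both strands, was in none of the 7 member windows and in 0.00913% of 32851 windows of this length. A single arm of it (AGAACA or TGTTCT), which the palindrome also contains, was in 1 of the 7, that of Bgn, and in 16.1% of all windows. TATAAA was in 2 of the 7, those of Aspn and Ogn, and in 7.59% of all windows, at 207 and 227 bases before the start. The window of Vcan held 62.4% G and C, and those of Aspn, Omd and Ogn held 30%, 38.4% and 42%. These matches describe letters in a short window only.

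The comparison of aldosterone with vehicle asked which matrix genes the hormone changes in these fibroblasts. Vcan rose 1.80-fold and Prelp 1.46-fold, while Has2 fell to 0.585 of its vehicle level. These 3 of 10 genes passed an adjusted p of 0.05 in limma fitted to all 27319 genes of the table on log2(normalized count + 1), where 10.4% of genes passed. When the sample number of the library was taken as a replicate block, 8 of 10 passed, against 16.7% of all genes: Omd, Ogn and Aspn joined Vcan and Prelp as higher, and Dcn and Lum joined Has2 as lower. Bgn and Fmod passed in neither fit, and no called member reached an absolute log2 fold change of 1, whereas 2.06% of genes were called with a change of that size. edgeR with the block called the same number of members, 8, against 30.7% of the genes its filter kept. The median log2 fold change of the 10 genes was 0.14 and that of all genes -0.01.

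Vcan had the largest difference of the members, with values given here and below in the order of sample number 1, 2 libraries, and sample number 2, 2 libraries. Its 4 vehicle libraries were at 8349, 8539, 8146 and 8489 normalized counts, and its 4 aldosterone libraries at 16494, 16012, 13915 and 14042. The spironolactone libraries were at 8202, 8081, 7598 and 8122. Every aldosterone library was thus above every library of the other treatments. The log2 fold change against vehicle was 0.85 ± 0.06 (SE, limma, adjusted p = 8.97e-08), and the exact permutation test gave 0.0286, the smallest two-sided p that 4 against 4 libraries allow. The adjusted p stayed at or below 0.05 without any of the 8 libraries and with edgeR (1.73e-06). Vcan also passed when plates of a sample number were averaged, which leaves 2 values a group, and it was the only member to do so.

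Has2, the main hyaluronan synthase of fibroblasts, moved the other way. Its vehicle libraries were at 773, 796, 469 and 552 normalized counts, and its aldosterone libraries at 480, 427, 309 and 292. In both groups sample number 2 was lower than sample number 1. The treatments overlapped slightly over all libraries (480 against 469) but not within a sample number. The log2 fold change was -0.77 ± 0.17 (limma, adjusted p = 0.00637, and 5.42e-10 with the block), with a log2 fold change of -0.79 in sample number 1 and -0.76 in sample number 2. The call was kept without each of the 8 libraries (limma, highest adjusted p = 0.0284). It was lost with plates averaged (limma, adjusted p = 0.209), and the exact permutation test, which leaves out the sample number, gave 0.0571.

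Among the SLRP genes, Prelp was the only member called without the block. Its vehicle libraries were at 20656, 20040, 16046 and 16250 normalized counts and its aldosterone libraries at 32829, 31080, 22611 and 21431. The groups did not overlap, although the lowest aldosterone library was close to the highest vehicle library. The log2 fold change was 0.55 ± 0.12 (limma, adjusted p = 0.00787), and the highest adjusted p without a library was 0.0334. Across the 10 genes, the groups did not overlap for 2, Vcan and Prelp, as for 23.5% of genes averaging 10 or more normalized counts.

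The 3 neighbours on chromosome 13 were each higher with aldosterone within both sample numbers. Omd, a keratan sulfate SLRP of mineralized tissues, was at 727, 619, 1336 and 1099 normalized counts with vehicle and at 908, 962, 1947 and 2066 with aldosterone. Over all 8 libraries the groups overlapped, since the sample number 2 vehicle libraries were above the sample number 1 aldosterone libraries. The log2 fold change of 0.60 had a 95% interval of 0.05 to 1.15 without the block (limma, adjusted p = 0.188) and of 0.47 to 0.74 with it (adjusted p = 2.13e-08).

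Ogn showed the same layering. Its vehicle libraries were at 16714, 15114, 26100 and 25026 normalized counts and its aldosterone libraries at 16806, 17668, 33740 and 35328. In sample number 1 the separation was narrow, with 16714 in the highest vehicle library and 16806 in the lowest aldosterone library. The log2 fold change was 0.11 in sample number 1 and 0.43 in sample number 2, and the interaction had an unadjusted limma p of 0.00171 and an adjusted p of 0.864. With the block the overall log2 fold change of 0.27 passed (limma, adjusted p = 1.08e-04), and without it the adjusted p was 0.562. Aspn, a calcium-binding SLRP, was at 10956, 10227, 12621 and 11841 normalized counts with vehicle and at 11807, 12282, 14299 and 15396 with aldosterone. Its log2 fold change of 0.23 passed with the block (limma, adjusted p = 7.71e-05) and not without it (0.106). Ecm2, the fourth gene of this stretch, was not called (log2 fold change 0.06, limma, adjusted p = 0.876, and 0.815 with the block).

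Dcn and Lum, which encode collagen-binding SLRPs and lie next to each other on chromosome 10, were lower with aldosterone. Dcn was at 4784, 4074, 5930 and 5583 normalized counts with vehicle and at 3422, 3580, 4824 and 5032 with aldosterone. Lum was at 887, 868, 1427 and 1229 with vehicle and at 643, 610, 1041 and 1172 with aldosterone. For both genes the treatments were separated within each sample number and overlapped over all 8 libraries. The log2 fold changes were -0.28 for Dcn and -0.37 for Lum, with adjusted p of 3.59e-05 and 3.12e-05 in limma with the block and of 0.210 and 0.295 without it. Of their neighbours, Kera (keratocan) was at 0 to 1.86 normalized counts with aldosterone and 2.54 to 11.1 with vehicle, close to the floor of detection, and Epyc was not called (limma, adjusted p = 0.483).

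Bgn and Fmod, the most abundant members, did not pass. Bgn was at 123744, 117992, 110652 and 114105 normalized counts with vehicle and at 129885, 126538, 116501 and 110861 with aldosterone, a log2 fold change of 0.05 with a 95% interval of -0.04 to 0.14 in limma with the block. Fmod was at 43032, 41344, 50084 and 49960 with vehicle and at 39057, 38500, 49915 and 47837 with aldosterone, a log2 fold change of -0.08 with an interval of -0.16 to 0.00. Without the block the intervals were wider, at -0.12 to 0.22 for Bgn and -0.28 to 0.12 for Fmod (limma). In both fits they lie inside the differences measured for Vcan and Has2. The blocked intervals rest on the spread between plates of a sample number, and so do not bound what aldosterone could have changed. Within the 8 SLRP genes, the share of the summed per kb level was 13.0% ± 3.62 for Prelp with aldosterone against 9.64% ± 1.80 with vehicle, and 22.7% ± 1.54 for Fmod against 26.4% ± 1.18 (SD, n = 4). In total, 9 of 10 genes were separated in the same direction within both sample numbers, as were 35.8% of genes averaging 10 or more, and Bgn was the exception. For Fmod the separation in sample number 2 was narrow, with 49960 in the lowest vehicle library and 49915 in the highest aldosterone library.

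**Figure D2:**
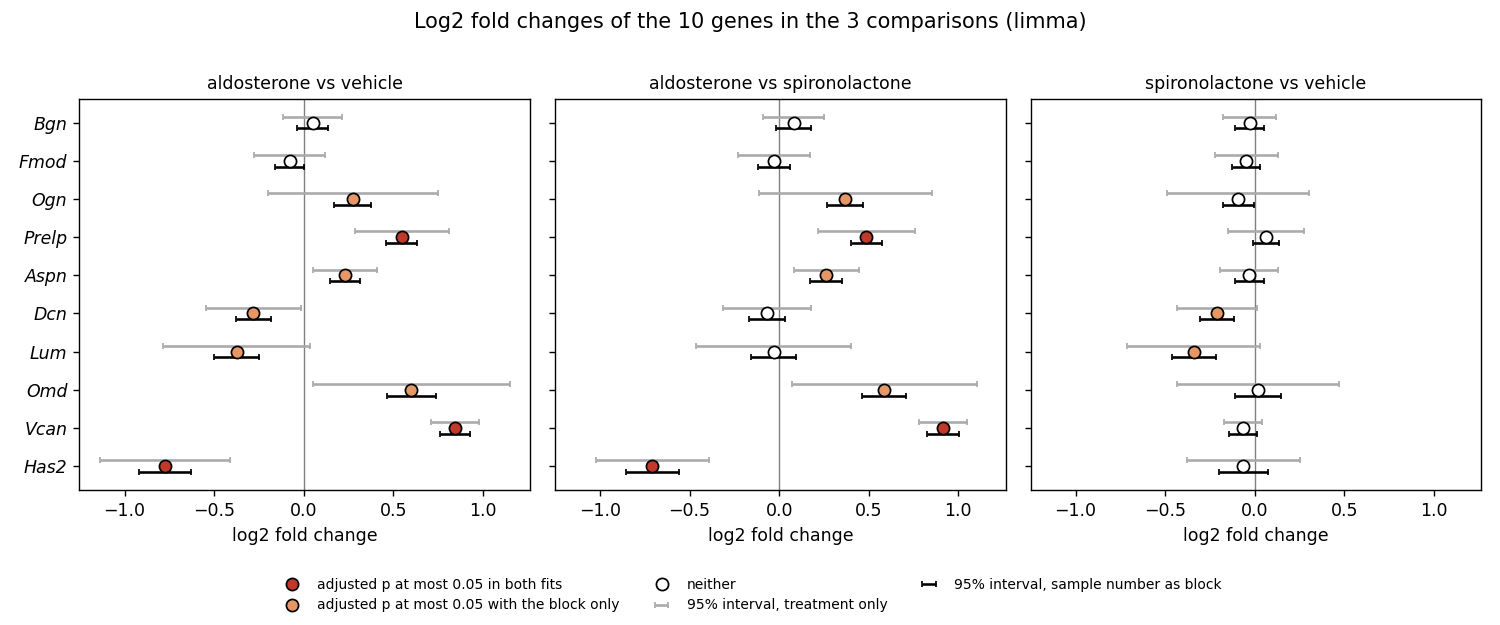
Log2 fold changes of the 10 genes in the 3 comparisons (points, limma), with 95% intervals for the fit on treatment only (grey) and for the blocked fit (black). Vcan, Prelp and Has2 pass in both fits against vehicle and against spironolactone, and Dcn and Lum are lower than vehicle with each agent in the blocked fit.

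The 2 sample numbers themselves differed in most of these genes. In a comparison added after the values were seen, limma over the 12 libraries with treatment as a covariate called 9 of 10 members between sample number 2 and sample number 1, where 10.9% of 28995 genes were called. Higher in sample number 2 were Omd (log2 difference 0.92), Ogn (0.82), Lum (0.72), Dcn (0.40), Fmod (0.28) and Aspn (0.25). Has2 (-0.55), Prelp (-0.42) and Bgn (-0.12) were lower, and Vcan was not called (-0.10, limma, adjusted p = 0.0699). For the 9 called members the libraries of the 2 sample numbers did not overlap within any of the 3 treatments, as was so for 19.1% of the 15276 genes averaging 10 or more. In size this difference exceeded that between aldosterone and vehicle for all members but Vcan, Prelp and Has2, a contrast that was not tested. The cartilage list moved with the sample number too, at 49091 to 74988 summed normalized counts in sample number 1 and 72534 to 108671 in sample number 2, with Col2a1 (type II collagen) higher by 1.10 on the log2 scale in sample number 2. Of its 6 genes 4 were called higher and 1 lower, Comp, at a log2 difference of -0.10 (limma, adjusted p = 0.0295). The mural cell sum went the other way from the cartilage sum, at 10859 to 13842 in sample number 1 and 7822 to 11013 in sample number 2, with 3 of its 5 genes lower, among them Myh11 by a log2 difference of -1.02 and Rgs5 of -1.01. The muscle list was at 421 to 861 and 212 to 576, with 3 of 8 genes lower. The part of these lists in the difference was not tested, and the labels do not say whether the sample number is the mouse. No member had an interaction of treatment and sample number that passed (limma, lowest adjusted p = 0.864), where 0.0146% of all genes did between aldosterone and vehicle, and Ogn, Vcan and Prelp were among those with an unadjusted p under 0.05.

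**Figure D3:**
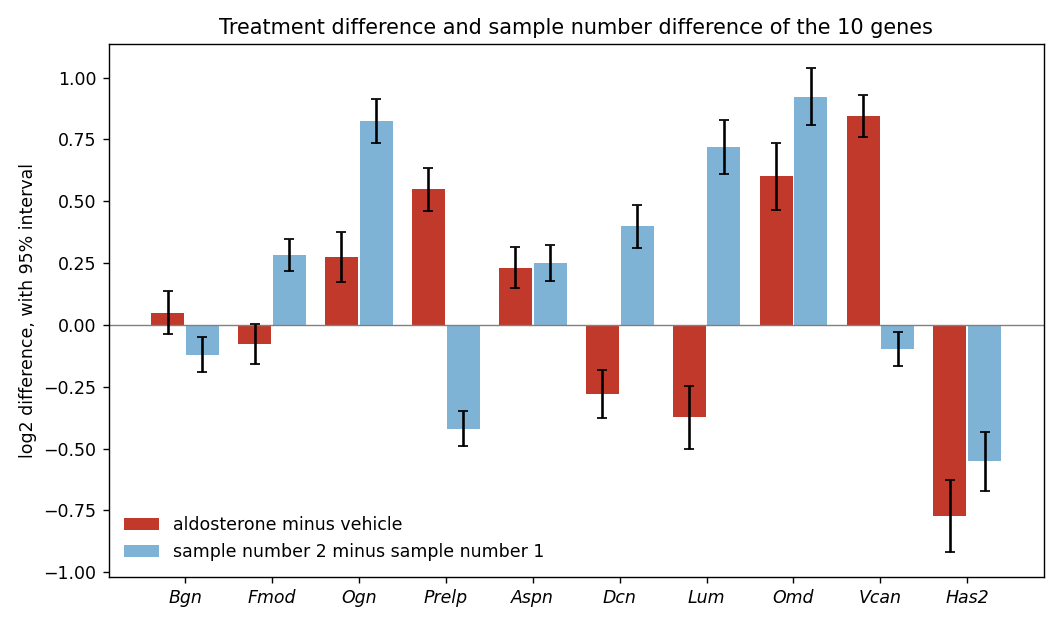
Log2 differences of the 10 genes between aldosterone and vehicle (red, blocked limma fit) and between sample number 2 and sample number 1 (blue, 12 libraries with treatment as a covariate), with 95% intervals. Omd and Ogn are higher in both contrasts and Has2 is lower in both, whereas Prelp, Dcn and Lum have opposite signs in the 2 contrasts.

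Against spironolactone in place of vehicle, aldosterone gave a similar set of calls. The same 3 genes passed without the block (8.88% of 27631 genes did): Vcan at a log2 fold change of 0.91 ± 0.06, Prelp at 0.49 ± 0.13 and Has2 at -0.71 ± 0.15 (SE, limma, adjusted p = 2.58e-08, 0.0214 and 0.00429). With the block 6 of 10 passed, against 14.4% of all genes, adding Omd (0.59), Ogn (0.37) and Aspn (0.26). edgeR with the block also called 6, against 26.2% of its genes. The groups did not overlap for 2 members, Vcan and Has2, as for 21% of genes averaging 10 or more, and 6 members were separated in the same direction within both sample numbers, as were 32.5% of such genes. Has2 was at 660, 750, 493 and 543 normalized counts with spironolactone, all above the highest aldosterone library at 480. Prelp was at 21484, 21822, 16699 and 16331 with spironolactone, so that 2 of these libraries reached the lower end of the aldosterone group. Its call was lost without any 1 of 4 libraries, aldosterone 1_1 or 1_2 or spironolactone 2_1 or 2_2 (limma, highest adjusted p = 0.0869), and with DESeq2 (0.0550), and held in every blocked fit. The aldosterone libraries are those of the comparison with vehicle, so the calls of both comparisons rest in part on the same values.

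Dcn and Lum did not differ detectably between aldosterone and spironolactone. The 95% intervals of the log2 fold change with the block were -0.17 to 0.03 for Dcn and -0.16 to 0.10 for Lum (limma), and those of Bgn and Fmod were -0.02 to 0.18 and -0.12 to 0.06. Without the block the intervals were -0.31 to 0.18 for Dcn and -0.46 to 0.40 for Lum. These include the log2 fold changes of the 2 genes against vehicle (-0.28 and -0.37). Dcn was at 3609, 4188, 4753 and 4979 normalized counts with spironolactone, and Lum at 608, 707, 1055 and 1149. Within sample number 1 the aldosterone libraries of Dcn (3422 and 3580) were both below those with spironolactone. The 2 treatments overlapped for Dcn within sample number 2 and for Lum within both sample numbers.

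Spironolactone was compared with vehicle to see whether the antagonist alone changes the same genes. No member passed in limma without the block, and none had an unadjusted p under 0.05. No gene of the table was called in this fit, a background of 0%, although 1251 of 27598 genes had an unadjusted p under 0.05. edgeR and DESeq2 called 0 members as well, and 0% and 0.113% of their genes. The log2 fold changes ran from -0.34 (Lum) to 0.06 (Prelp). With the block 2 of 10 genes passed, against 0.351% of all genes, Dcn at -0.21 (limma, adjusted p = 0.0294) and Lum at -0.34 (0.00187). Lum kept its call without each of the 8 libraries (highest adjusted p = 0.0327) and in edgeR with the block (0.0168), which called 0.321% of its genes. Dcn lost it in 5 of the 8 fits (highest 0.245, without spironolactone 2_1) and in edgeR with the block (0.0907). The libraries of Dcn overlapped within sample number 1 (4188 with spironolactone and 4074 with vehicle), and those of Lum were separated within both. Both agents are compared here with the same vehicle libraries, so the lower Dcn and Lum values in the 2 comparisons are not independent of each other.

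For the remaining members the blocked intervals rest on the spread between plates of a sample number, and so do not bound what spironolactone could have changed. The blocked interval of Vcan was -0.14 to 0.01, that of Prelp -0.01 to 0.14, and that of Has2 -0.20 to 0.07. For Omd it was -0.11 to 0.15 and for Ogn -0.18 to -0.01, with an adjusted p of 0.591 for Ogn (limma). It was -0.11 to 0.05 for Bgn, -0.12 to 0.03 for Fmod and -0.11 to 0.05 for Aspn. Without the block the intervals of all these members were wider. Those of Omd, Ogn and Has2 were then -0.44 to 0.47, -0.49 to 0.30 and -0.38 to 0.25 (limma). Spironolactone groups overlapped vehicle groups for all 10 members, while 3.41% of genes averaging 10 or more did not overlap. Within both sample numbers 3 members (Lum, Vcan and Prelp) were separated in the same direction, as were 9.44% of such genes.

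The other genes that make, bind or cut these molecules were followed in 9 lists of 108 genes, of which 107 had values. With aldosterone against vehicle 10 were higher and 21 lower (limma), 29.0% of the 107 where 10.4% of all genes passed, and 16 were higher and 31 lower with the block, 43.9% against 16.7%. The counts of single lists below are without the block unless it is named and stand against the same 10.4%. The lists had a median log2 fold change of -0.07 over the 107. None of these genes was called with spironolactone against vehicle, where 6 had an unadjusted p under 0.05 and edgeR and DESeq2 also called 0. Against spironolactone, 10 were higher and 15 lower with aldosterone, 23.4% of the 107 against 8.88% of all genes. Of the 107 genes 93 averaged 10 or more normalized counts, as all 10 members did, while the share of calls over a whole table includes many rarely detected genes. In edgeR, whose filter leaves out genes with few reads, 31 of 94 genes of the lists were called against vehicle, and 3055 of all 15416. With the block edgeR called 49 of 95, against 30.7% of 15798 genes.

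Hyaluronan genes other than Has2 moved only downward among those called. Of 15 tested, 0 were higher and 4 lower with aldosterone, and 6 were lower with the block, where 16.7% of all genes passed. edgeR with the block called 6 lower and 0 higher of the 12 its filter kept, against 30.7% of all genes kept. Tnfaip6, whose product TSG-6 transfers heavy chains onto hyaluronan, fell from 114 ± 13.0 to 61.4 ± 8.62 normalized counts (SD, n = 4; limma log2 fold change -0.89, adjusted p = 0.00141). Cemip and Cemip2, which encode hyaluronan-degrading proteins, fell by 0.82 and 0.71 on the log2 scale (limma, adjusted p = 3.93e-04 and 1.18e-06), while the hyaluronidase genes Hyal1, Hyal2 and Hyal3 were not called (log2 fold changes 0.13, -0.03 and 0.50; limma, adjusted p = 0.627, 0.887 and 0.637). Hmmr, a hyaluronan receptor gene that is also a gene of dividing cells, fell by 0.59. Of the other synthases, Has1 had a log2 fold change of -0.66 (limma, adjusted p = 0.0742, and 0.0184 with the block) from 90.0 ± 12.2 normalized counts with vehicle, and Has3 one of -0.33 (0.669) from 34.1 ± 7.38.

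Genes around Vcan changed in both directions. Hapln1, whose link protein joins hyalectans to hyaluronan, was at 1004 to 1815 normalized counts with vehicle and 1656 to 2953 with aldosterone, a log2 fold change of 0.68 (limma, adjusted p = 0.0351, up to 0.123 without a library and 2.55e-12 with the block). It was the only gene higher of 7 other hyalectan and link protein genes, and with the block 1 was lower. Of 7 proteases that cut hyalectans, 2 were lower and 0 higher: Adamts9 (-0.75) and Adamts4 (-0.42). Chondroitin and dermatan sulfate synthesis had 4 higher and 4 lower of 20 genes. Ust and Chst15, sulfotransferase genes that add sulfate to uronic acid or to already sulfated residues, were higher by 0.52 and 0.51, whereas the chain polymerase gene Chsy1 was lower by 0.42 and the sulfotransferase gene Chst7 had a log2 fold change of -0.35 (limma, adjusted p = 0.0149, up to 0.0564 without a library). Xylt1, which starts the linker on the core protein, had a log2 fold change of -0.53, and B3galt6, a later linker enzyme, one of -0.31 (limma, adjusted p = 0.0223, up to 0.0838 without a library). They were the 2 genes lower of 7 in the linker list, and 0 were higher.

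Keratan sulfate synthesis had 1 gene lower of 8, Chst1 at -0.55, and UDP-sugar supply 1 lower of 10, Gfpt1 at -0.26. Among 10 other small leucine-rich repeat genes, 1 was higher and 2 were lower, with Podn (podocan) at 704 ± 21.3 normalized counts with vehicle and 410 ± 25.1 with aldosterone (SD, n = 4; limma log2 fold change -0.78, adjusted p = 1.09e-06). Of the other called genes of this list, Nyx (higher) and Kera (lower) averaged under 10. The largest called rises of genes averaging 10 or more, over all lists, were among heparan sulfate and other proteoglycans, where 4 genes were higher and 5 lower of 23. Spock2 (testican 2) was higher by 1.60 and Tgfbr3 (betaglycan, a coreceptor for TGF-beta) by 1.05 on the log2 scale. Gpc3 (glypican 3) was higher by 0.84, and Spock3 had a log2 fold change of -0.86 (limma, adjusted p = 0.0196, up to 0.0781 without a library). Against spironolactone, Spock3 (-0.35), Adamts4 (-0.18) and Chst1 (-0.41) were not called (limma, adjusted p = 0.456, 0.311 and 0.0804). With the block Chst1 passed there (0.00334), and Spock3 and Adamts4 did not (0.345 and 0.160).

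**Figure D4:**
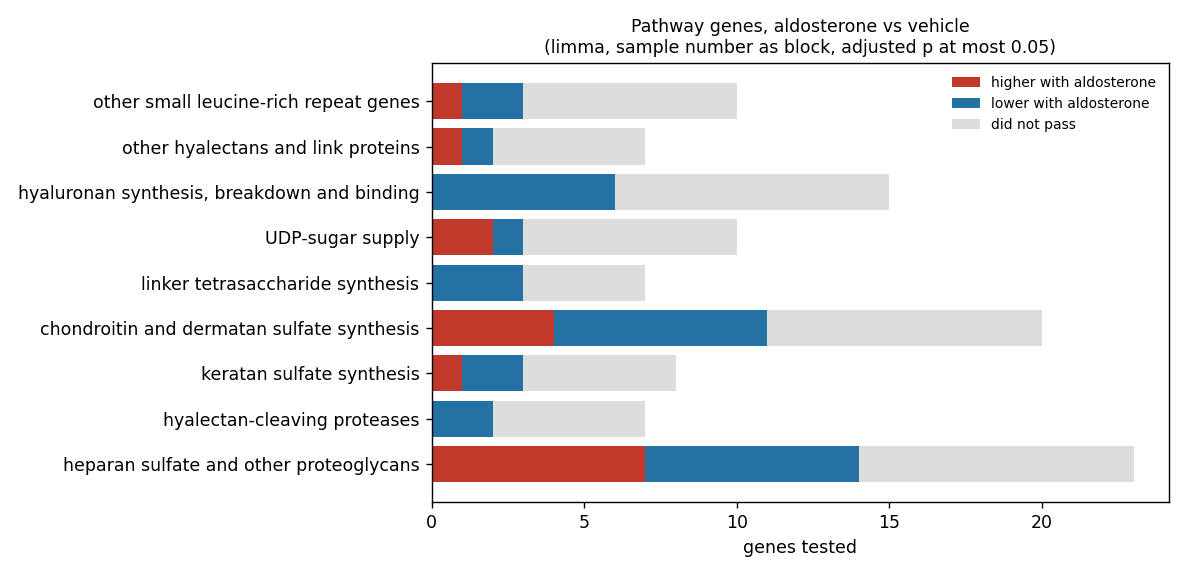
Number of genes higher, lower or not passing in each pathway list for aldosterone against vehicle (blocked limma fit, adjusted p at most 0.05). The hyaluronan, linker and protease lists have lower genes only among those called, with 6 of 15, 3 of 7 and 2 of 7.

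The genes whose levels ran most closely with a member over the 12 libraries were taken by Pearson's r among the 15276 genes averaging 10 or more normalized counts, which describes libraries that share treatment and sample number. For Vcan these were Stim1 (r = 0.992), Ehd3 (0.991) and Spsb1 (0.991). For Has2 they were Ptgs2, the inducible cyclooxygenase gene (0.991), Prepl (0.984) and Cstf2 (0.984). Ptgs2 was at a mean of 1018 normalized counts with vehicle and 335 with aldosterone. For Dcn they were Fndc3a (0.974), Srpx (0.966) and Lum (0.960), so that Lum, the neighbour of Dcn, was among the 3 genes closest to it.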

How the data were processed

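Poly(A) RNA of 12 libraries was sequenced, 4 for each treatment. Per the labels, the authors aligned reads with HISAT2 (version 2.0.5) and counted them on genes with featureCounts (version 1.5.0-p3). The submitters' processing notes name build mm39 and the methods name mm9. Coordinates are given as deposited, and whether counting used the strand is not given in the sources used here. The authors deposited, for every treatment pair, a signal table of gene counts divided by a size factor per library (normalized counts), with their own fold changes and p-values, which were not used. The smallest step within a column gave back whole reads (100% of values whole within a tolerance of 0.02). For 2 columns with a step near 1, the reads of the same library in its other table were used, with the step of the column itself for 210 genes found only there. Levels shown are these reads divided by size factors over the 12 libraries. Each library held between 19136923 and 30219185 reads.

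Each table was fitted separately with limma (version 3.58.1, R 4.3.3) on log2(normalized count + 1) with a variance trend and Benjamini-Hochberg adjustment over all genes. Fold changes are on this scale. Genes at the same value in every library of a fit were left out of it. Alternatives were edgeR (4.0.16), DESeq2 (1.42.0), a pseudocount of 0.5, a mean of at least 10, TMM scaling, a fit of all 12 libraries, replicate blocks, plates averaged and leaving out each library. The blocked edgeR fit, blocked fits without each library, the comparison of sample numbers and its interaction with treatment were added after seeing the data. Tests were checked on simulated counts with a shift between sample numbers and the same treatment effect in both. That check does not cover treatment effects that differ between mice.

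Same-numbered libraries of different treatments deviated together for the sample number, with a correlation of 0.134 to 0.283 over 24 pairs and 15276 genes, and not for the biological replicate number (mean -0.00547). The sample number was therefore taken to pair the libraries. The members and lists were chosen with earlier results of these data known. The text names all members, up to 4 genes per list with the largest absolute log2 fold change between aldosterone and vehicle among those called with a mean of at least 10, 3 receptor targets and the 3 genes closest to Vcan, Has2 and Dcn. Has1, Has3, the hyaluronidase and single marker genes, and genomic neighbours were named outside this rule, after their values were seen.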

Additional observations from a re-analysis of the deposited data

How the results depend on the processing

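With a replicate block on the sample number, 8 members were called between aldosterone and vehicle in place of 3, 6 in place of 3 between aldosterone and spironolactone, and 2 in place of 0 between spironolactone and vehicle. For members and pathway genes together the counts were 55 in place of 34, 44 in place of 28 and 2 in place of 0. edgeR with the same block called 8, 6 and 1 members, and 57, 44 and 1 genes of both. With plates averaged, which leaves 2 values a group, 1 member passed in each comparison with aldosterone and 11 and 5 genes of both. The remaining settings (edgeR, DESeq2, a pseudocount of 0.5, the filter, TMM scaling, 12 libraries in 1 fit and the biological replicate number as a block) kept these counts within 1.5 times. Without each library in turn, 3 to 4 members (28 to 35 of both) were called against vehicle, 2 to 3 (24 to 28 of both) against spironolactone and 0 between spironolactone and vehicle. The sign of a member turned only without a library, and only where it was not called. Between aldosterone and spironolactone the log2 fold change then ran from -0.16 to 0.026 for Dcn, -0.093 to 0.032 for Fmod and -0.20 to 0.12 for Lum. Between spironolactone and vehicle it ran from -0.081 to 0.037 for Aspn, -0.098 to 0.0068 for Fmod, -0.0065 to 0.13 for Prelp, -0.16 to 0.21 for Omd, -0.25 to 0.063 for Ogn and -0.21 to 0.047 for Has2. By normalized count in place of per kb, Vcan ranked 6 and Dcn 7 among the members in vehicle. Depth did not limit the members, the lowest of which was at 292 normalized counts, whereas each treatment held plates of 2 mice only.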
